A study of Homo sapiens with 12 samples.

Results

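Interferon-stimulated genes are the genes that cells switch on when interferons bind their receptors, and 43 of them were followed here by name through knockdown of TP63 in a pair of squamous carcinoma lines. Of the 43, 41 were measured, among 18404 genes compared in all. GBP1 had a probe set only in common with other guanylate-binding genes, and STAT2 was not analysed here. A gene with several probe sets was represented by the one with the highest mean over the 12 arrays, which concerned GBP2 alone among the members. FaDU and JHU-029 are established cell lines grown from squamous carcinomas of the head and neck. Each was given a lentiviral shRNA against TP63 (shTP63) or a lentiviral control vector (shControl), and RNA was taken 72 hours later. The groups were FaDU shTP63, FaDU shControl, JHU-029 shTP63 and JHU-029 shControl, with 3 arrays each. All 4 groups therefore carried a lentiviral shRNA vector, and untransduced cells were not analysed here. TP63 expression was not analysed here either, so the knockdown itself was not checked. Values are log2 of the deposited linear intensity, and differences are shTP63 minus shControl unless another order is stated. An adjusted p is that of limma's moderated test with Benjamini and Hochberg adjustment over the 18404 genes, and a gene is said to have risen or fallen where it was under 0.05.

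Type I and type III interferons signal through the receptor-bound kinases JAK1 and TYK2 to ISGF3, a complex of STAT proteins with the DNA-binding subunit IRF9. ISGF3 binds the interferon-stimulated response element (ISRE) in the promoters of its targets, whereas interferon gamma acts mainly through the gamma-activated site (GAS). The products block viral entry, translation and replication, sense or cut viral RNA, and couple the ubiquitin-like protein ISG15 to other proteins. Epithelial tumour lines often carry different standing levels of these genes without added interferon.

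Probe set medians of the arrays lay between 6.46 and 6.56 on the log2 scale. All 6 measured markers of squamous epithelium, among them KRT5 and KRT14, had means above the array median in every group. The leukocyte marker PTPRC lay at 3.55 in FaDU shTP63, 3.42 in FaDU shControl, 3.43 in JHU-029 shTP63 and 3.37 in JHU-029 shControl, far below it. Of 13 measured immune cell markers, however, 3 had means above the array median in both FaDU groups and 2 in both JHU-029 groups. The brightest was CD68, at 10.96 in FaDU shTP63, 10.85 in FaDU shControl, 10.75 in JHU-029 shTP63 and 10.81 in JHU-029 shControl. Of these 13 markers 2 rose in FaDU, near the 12.4% of all genes that rose there. CD14 rose by 0.51 (SE 0.09, adjusted p = 0.00102) and LYZ by 0.76 (SE 0.15, adjusted p = 0.00185). The summed linear intensity of those 13 markers was 2485 to 2748 over the FaDU shTP63 arrays and 2391 to 2428 over the FaDU shControl arrays. In JHU-029 the sums were 2103 to 2215 with shTP63 and 2191 to 2306 with shControl. Of 7 endothelial markers, 2 rose in FaDU, against the same 12.4% of all genes. They were CDH5 (1.00, SE 0.07, adjusted p = 1.25e-06) and ESAM (0.30, SE 0.09, adjusted p = 0.0239). The summed intensity of the 7 was 1133 to 1229 in FaDU shTP63 and 751 to 768 in FaDU shControl. In JHU-029 it was 317 to 360 with shTP63 and 328 to 352 with shControl. The summed intensity of 8 fibroblast markers was 506 to 525 in FaDU shTP63 and 472 to 518 in FaDU shControl. For JHU-029 it was 804 to 851 with shTP63 and 759 to 782 with shControl. The summed squamous markers were 12802 to 13058 in FaDU shTP63 and 18760 to 18848 in FaDU shControl. In FaDU 4 of the 6 (KRT5, KRT14, DSG3 and SFN) fell, against 14.2% of all genes. The part of these markers in the results below was not tested. Of the arrays, JHU-029 shTP63 replicate 1 stood farthest apart in the interferon-stimulated genes. Within their group 37 of the 41 members were lowest there, against 43.2% of all genes. Members also shifted together in JHU-029 shControl, where 34 of 41 lay above their group mean in replicate 1 and 4 in replicate 2. Over all genes these shares were 54.1% and 46.1%. In FaDU shControl replicate 2 it was 10 of 41, against 47.6%. Counts of called members and medians in JHU-029 and between the lines are given with and without JHU-029 shTP63 replicate 1.

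To show the sequence that such genes share, promoters were read from RefSeq (GRCh38.p14), 250 bases before to 50 bases after each annotated start. At least 1 promoter was found for 35 of the 43 members. The ISRE was searched as GAAANNGAAA on both strands (TTTCNNTTTC on the other), and the GAS as TTCNNNGAA, which reads the same on both. An ISRE match stood in a promoter of 24 of these 35 genes (68.6%), against 1195 of all 27305 genes with a promoter (4.38%). A GAS match stood in 12 of the 35 (34.3%), against 9.38% of all genes. A match is a description of the letters and no evidence of binding. The stretches below were chosen after the values were seen. They show members that rose in FaDU with an ISRE (IFI27, IFIT3, MX1, DTX3L), the transcription factor genes IRF1 and IRF9 with a GAS and no ISRE match, and members with an ISRE that did not pass the test in either line (IFI6, ISG15). Capitals mark the ISRE and GAS matches, with 20 bases on either side, read 5′ to 3′ on the strand of the gene.
IFI27: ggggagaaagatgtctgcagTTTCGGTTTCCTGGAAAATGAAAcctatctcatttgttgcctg
IFIT3: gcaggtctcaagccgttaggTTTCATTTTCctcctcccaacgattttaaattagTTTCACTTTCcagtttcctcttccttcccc
MX1: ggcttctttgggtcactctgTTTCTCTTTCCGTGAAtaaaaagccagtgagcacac
DTX3L: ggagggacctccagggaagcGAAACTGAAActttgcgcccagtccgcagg
IRF1: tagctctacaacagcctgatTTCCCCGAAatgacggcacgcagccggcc
IRF9: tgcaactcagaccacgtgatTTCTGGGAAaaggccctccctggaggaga
IFI6: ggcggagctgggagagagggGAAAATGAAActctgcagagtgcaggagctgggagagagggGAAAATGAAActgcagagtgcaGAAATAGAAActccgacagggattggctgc
ISG15: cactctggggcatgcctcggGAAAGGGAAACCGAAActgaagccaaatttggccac
The stretches lie at chr14:94110608-94110670, plus strand, for IFI27, chr10:89327821-89327904, plus strand, for IFIT3, chr21:41431834-41431889, plus strand, for MX1, and chr3:122564312-122564361, plus strand, for DTX3L. Those of IRF1 and IRF9 lie at chr5:132490869-132490917, minus strand, and at chr14:24161182-24161230, plus strand. IFI6 is shown at chr1:27672256-27672368, minus strand, and ISG15 at chr1:1013364-1013419, plus strand. In IFI27 both ISRE matches overlapped the GAS match, and in MX1 the ISRE match overlapped the GAS match.

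The lines differed widely in these genes when both carried the control vector. Of the 41 members, 32 were lower and 4 were higher in FaDU shControl than in JHU-029 shControl. Over all genes, 30.4% were lower and 33.4% higher in that comparison, 63.8% in all. At an unadjusted p under 0.05, 37 members differed, against 66.9% of all genes, and 7 members had a positive difference, against 55.7%. The median difference of the members was -0.86 on the log2 scale, against 0.05 over all genes. The widest gap was that of OAS2, an enzyme that makes 2-5A on binding double-stranded RNA: its log2 intensity was 6.64, 6.34 and 6.62 in FaDU shControl cells, against 10.56, 10.47 and 10.53 in JHU-029 shControl cells. That is 15.86-fold lower in FaDU (-3.99, SE 0.09, adjusted p = 2.82e-12), and the FaDU mean stood below the array median. GBP3 (-2.18, SE 0.10, adjusted p = 5.40e-10), MX2 (-1.97) and MX1 (-1.91) followed among the lower members. The FaDU shControl means of GBP3 and MX2 also lay below the array median. Other large gaps were those of TRIM22 (-1.86), XAF1 (-1.81), IFI27 (-1.77) and OAS1 (-1.68).

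The 4 members that were higher in FaDU shControl were BST2, GBP2, IRF1 and UBE2L6. BST2, a surface protein that tethers budding virus, had 8.60, 8.59 and 8.70 in FaDU shControl cells, against 6.05, 5.90 and 5.82 in JHU-029 shControl cells, which is 6.53-fold higher in FaDU (2.71, SE 0.08, adjusted p = 2.18e-11). The JHU-029 shControl mean of BST2 lay below the array median. UBE2L6, the E2 enzyme of ISG15 conjugation, was higher by 0.78 (SE 0.06, adjusted p = 1.11e-07). GBP2 was higher by 0.66 and IRF1 by 0.65. The 5 members without a call between the controls were IFI44L (0.33), ISG15 (0.18), ISG20 (0.12), CMPK2 (-0.06) and PARP9 (-0.05). PARP9 thus showed a difference near 0 while DTX3L, its neighbour on the chromosome and partner in a protein complex, was lower in FaDU by 0.97 (SE 0.06, adjusted p = 5.97e-09).

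**Figure D1:**
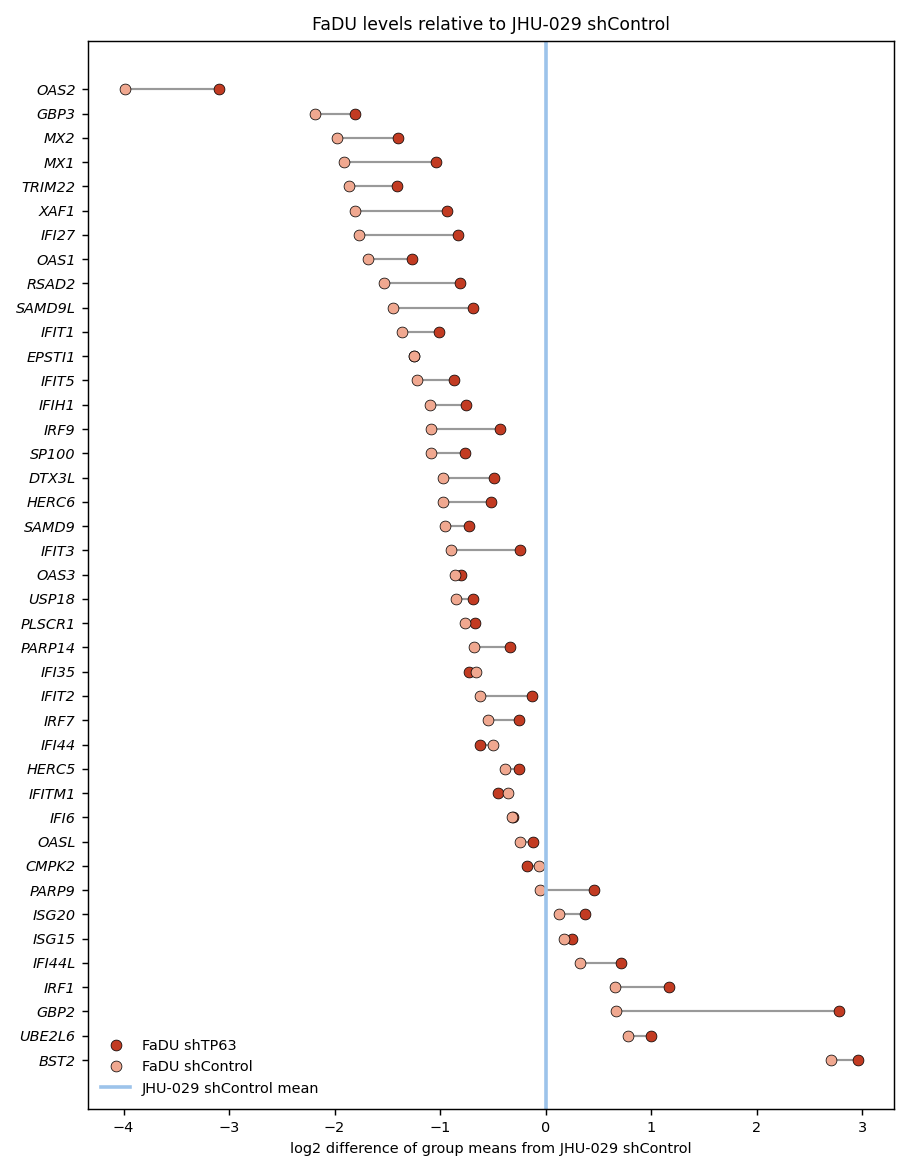
Log2 difference of the FaDU shTP63 mean (dark points) and the FaDU shControl mean (light points) from the JHU-029 shControl mean (vertical line), for 41 interferon-stimulated genes, each point a mean of 3 arrays. OAS2 lies farthest to the left at -3.99 for FaDU shControl, BST2 farthest to the right at 2.71, and the dark point of GBP2 lies far to the right of its light one.

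After TP63 knockdown in FaDU, 27 of the 41 members rose and 0 fell. Over all genes, 12.4% rose and 14.2% fell in the same comparison. The 27 rises ran from 0.21 to 2.12 on the log2 scale, which is 1.16-fold to 4.35-fold. The median change of the 41 members was 0.35, against 0.02 over all genes, and 37 members had a positive difference, against 53.5% of all genes. At an unadjusted p under 0.05, 29 members differed, against 36.5%. In 30 members all 3 FaDU shTP63 arrays lay above all 3 FaDU shControl arrays, which 18.1% of all genes did, and in CMPK2 they lay below, as in 18% of all genes. The titles of 2 FaDU shControl arrays carry the extra word "new", and the labels do not say what it means. Leaving out those 2 leaves 1 FaDU control array, whose spread is assumed to be that of the other groups. Fewer members and fewer of all genes then passed, and no called member changed sign. The comparison between the control groups shares the FaDU shControl arrays with the knockdown comparison in FaDU.

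The 3 measured transcription factors among the members, all of them IRF genes, rose in FaDU, where 12.4% of all genes rose. IRF9, the DNA-binding subunit of ISGF3, had log2 intensities of 8.82, 8.88 and 8.84 in FaDU shTP63 cells, against 8.29, 8.17 and 8.10 in FaDU shControl cells. It rose by 0.66 (SE 0.09, adjusted p = 0.000105), and the groups did not overlap. In JHU-029, IRF9 had 9.12, 9.32 and 9.43 in JHU-029 shTP63 cells, against 9.40, 9.17 and 9.25 in JHU-029 shControl cells, a difference of 0.02 (SE 0.09, adjusted p = 0.968), and those groups overlapped. IRF1, a factor induced by interferon gamma and by inflammatory signals, had 9.22, 9.29 and 9.17 in FaDU shTP63 cells, against 8.73, 8.68 and 8.73 in FaDU shControl cells. Its rise of 0.52 (SE 0.07, adjusted p = 8.48e-05) added to a level that was already the higher of the lines. In JHU-029 it had 8.01, 8.19 and 8.19 in JHU-029 shTP63 cells, against 8.15, 8.03 and 8.0 in JHU-029 shControl cells (0.07, SE 0.07, adjusted p = 0.736). IRF7, which amplifies interferon production, had 7.64, 7.65 and 7.62 in FaDU shTP63 cells, against 7.33, 7.40 and 7.30 in FaDU shControl cells, and rose by 0.29 (SE 0.07, adjusted p = 0.00495). Its 3 knockdown arrays lay within a few hundredths of each other and above every control array. In JHU-029, IRF7 had 7.83, 7.81 and 8.02 in JHU-029 shTP63 cells, against 7.88, 7.83 and 7.97 in JHU-029 shControl cells, with overlap, and the 95% interval of the difference was -0.15 to 0.14.

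GBP2, an interferon-inducible GTPase, showed the largest rise of all members. Its log2 intensity was 7.19, 7.11 and 7.27 in FaDU shTP63 cells, against 5.11, 4.94 and 5.16 in FaDU shControl cells, a 4.35-fold rise (2.12, SE 0.09, adjusted p = 1.65e-08). In control cells of both lines it lay below the array median, and in FaDU shTP63 it lay above. A second probe set of GBP2 gave a rise of 1.28 in place of 2.12. Its FaDU shTP63 mean was 6.49, below the array median, against 7.19 for the probe set used. In the other groups the second probe set had the higher mean. The choice by highest mean thus rested on the group where GBP2 was high. In JHU-029, GBP2 had 4.59, 4.67 and 4.51 in JHU-029 shTP63 cells, against 4.23, 4.42 and 4.57 in JHU-029 shControl cells, and the groups overlapped (0.18, SE 0.09, adjusted p = 0.361). GBP3, a related GTPase, had 6.08, 6.08 and 6.41 in FaDU shTP63 cells, against 5.89, 5.89 and 5.68 in FaDU shControl cells. It rose by 0.37 (SE 0.10, adjusted p = 0.0121) from a level below the array median, and the call was lost without FaDU shControl replicate 3 (adjusted p = 0.0553, the highest over its alternatives).

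The 4 IFIT genes, whose products bind foreign RNA ends and restrain translation, all rose in FaDU, where 12.4% of all genes rose. IFIT3 had log2 intensities of 8.29, 8.25 and 8.06 in FaDU shTP63 cells, against 7.52, 7.45 and 7.68 in FaDU shControl cells, and rose by 0.65 (SE 0.09, adjusted p = 0.00012). IFIT2 had 9.25, 9.28 and 9.39 in FaDU shTP63 cells, against 8.86, 8.77 and 8.83 in FaDU shControl cells, and rose by 0.49 (SE 0.07, adjusted p = 0.000269). Every knockdown array of both genes lay above every control array. IFIT1 (8.81, 8.86 and 8.66 in FaDU shTP63 cells, against 8.42, 8.42 and 8.42 in FaDU shControl cells) rose by 0.36 (SE 0.10, adjusted p = 0.0211), and IFIT5 (7.52, 7.85 and 7.78 in FaDU shTP63 cells, against 7.38, 7.33 and 7.39 in FaDU shControl cells) rose by 0.35 (SE 0.09, adjusted p = 0.0121). The IFIT1 call was lost without FaDU shControl replicate 1 or 3, without FaDU shTP63 replicate 1 or 2, and without both FaDU controls of the extra title word (adjusted p of up to 0.156). The IFIT5 call was lost without FaDU shTP63 replicate 2 and without those controls (adjusted p of up to 0.134). In JHU-029 the differences of the 4 genes lay between 0.09 and 0.16 and none passed. Of the oligoadenylate synthetases, OAS2 had 7.43, 7.48 and 7.36 in FaDU shTP63 cells, against 6.64, 6.34 and 6.62 in FaDU shControl cells, and rose by 0.89 (SE 0.09, adjusted p = 2.14e-05), and its groups were far apart. In JHU-029, where it was much higher, OAS2 had 10.16, 10.48 and 10.42 in JHU-029 shTP63 cells, against 10.56, 10.47 and 10.53 in JHU-029 shControl cells (-0.17, SE 0.09, adjusted p = 0.477). OAS1 had 8.53, 8.47 and 8.57 in FaDU shTP63 cells, against 8.25, 7.99 and 8.09 in FaDU shControl cells, and rose by 0.42 (SE 0.09, adjusted p = 0.00491). OAS3 (0.06, 95% interval -0.08 to 0.21) and OASL (0.12, 95% interval -0.08 to 0.32) did not pass, nor did the RNA sensor IFIH1 (0.35, SE 0.12, adjusted p = 0.0521). OAS1, OAS3 and OAS2 are neighbours on chromosome 12.

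**Figure D2:**
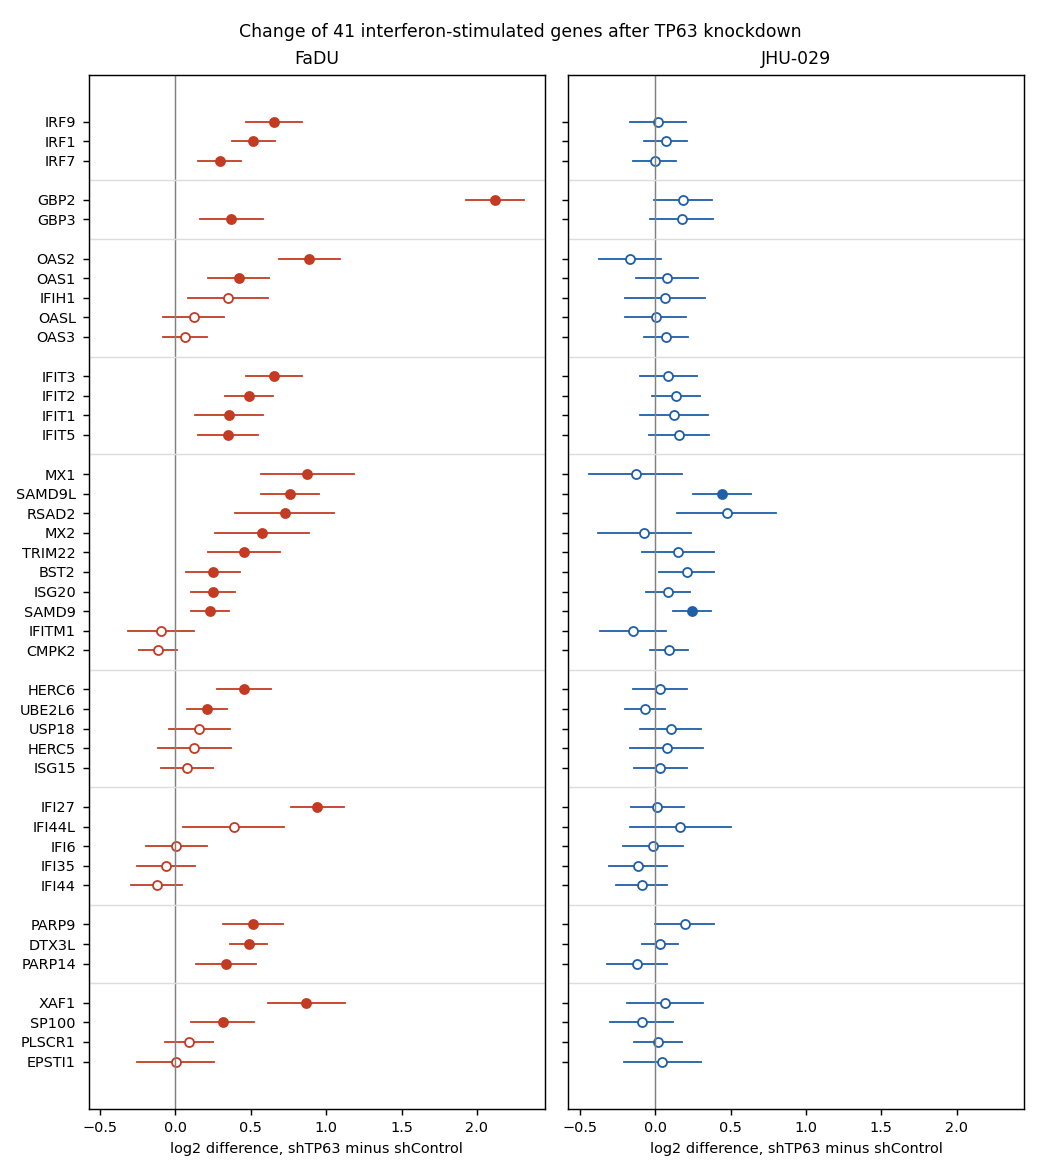
Log2 difference, shTP63 minus shControl, of 41 interferon-stimulated genes in FaDU (left) and JHU-029 (right), grouped by role, with 95% intervals of the limma fit. Filled points passed the test, which were 27 members in FaDU and SAMD9 and SAMD9L in JHU-029.

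Of 10 antiviral effectors, 8 rose in FaDU, against 12.4% of all genes. MX1, a dynamin-like GTPase that traps viral nucleocapsids, had 8.03, 7.98 and 7.85 in FaDU shTP63 cells, against 7.20, 6.93 and 7.09 in FaDU shControl cells, and rose by 0.88 (SE 0.14, adjusted p = 0.00054). MX2, its nuclear-pore relative, had 7.16, 6.91 and 6.96 in FaDU shTP63 cells, against 6.50, 6.43 and 6.37 in FaDU shControl cells, and rose by 0.57 (SE 0.14, adjusted p = 0.00936). In both genes the control arrays all lay below the knockdown arrays. In JHU-029, MX1 had 8.49, 9.01 and 9.08 in JHU-029 shTP63 cells, against 9.14, 8.78 and 9.04 in JHU-029 shControl cells, with a difference of -0.13 (SE 0.14, adjusted p = 0.79) and groups that overlapped. RSAD2 (viperin), which makes a chain-terminating nucleotide, had 5.82, 6.09 and 5.76 in FaDU shTP63 cells, against 4.94, 5.12 and 5.44 in FaDU shControl cells, and rose by 0.72 (SE 0.15, adjusted p = 0.00312), at levels below the array median in both groups. CMPK2, the neighbour of RSAD2 on chromosome 2 and a mitochondrial nucleotide kinase, differed by -0.12 (SE 0.06, adjusted p = 0.165) and did not pass, although its 3 knockdown arrays lay below the 3 controls. TRIM22, a ubiquitin ligase, had 7.22, 7.07 and 7.12 in FaDU shTP63 cells, against 6.70, 6.62 and 6.72 in FaDU shControl cells, and rose by 0.45 (SE 0.11, adjusted p = 0.00808). The MX2, RSAD2 and TRIM22 calls were lost without the FaDU controls of the extra title word (adjusted p of up to 0.144 for RSAD2, 0.119 for TRIM22 and 0.0702 for MX2).

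Smaller rises among the effectors were those of BST2 (0.25, SE 0.08, adjusted p = 0.0419) and the exonuclease ISG20 (0.25, SE 0.07, adjusted p = 0.0155). The BST2 call was lost in 11 of 23 alternatives, among them those without any 1 FaDU array other than shControl replicate 3, without JHU-029 shControl replicate 2 and without JHU-029 shTP63 replicate 3 (highest adjusted p 0.366). The ISG20 call was lost without FaDU shControl replicate 2, FaDU shTP63 replicate 3 or the FaDU controls of the extra title word (adjusted p up to 0.267). The membrane protein IFITM1 differed by -0.10 (SE 0.10, adjusted p = 0.55) and did not pass.

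SAMD9 and SAMD9L, adjacent genes on chromosome 7 whose products restrict poxviruses and translation, were the members that rose in both lines. SAMD9L had 8.56, 8.48 and 8.55 in FaDU shTP63 cells, against 7.84, 7.70 and 7.77 in FaDU shControl cells, and rose by 0.76 (SE 0.09, adjusted p = 4.45e-05). In JHU-029 it had 9.45, 9.71 and 9.81 in JHU-029 shTP63 cells, against 9.32, 9.10 and 9.23 in JHU-029 shControl cells, and rose by 0.44 (SE 0.09, adjusted p = 0.0182). SAMD9 had 11.02, 10.90 and 10.94 in FaDU shTP63 cells, against 10.77, 10.71 and 10.69 in FaDU shControl cells (0.23, SE 0.06, adjusted p = 0.00976). In JHU-029, SAMD9 had 11.82, 11.97 and 11.97 in JHU-029 shTP63 cells, against 11.69, 11.63 and 11.71 in JHU-029 shControl cells (0.24, SE 0.06, adjusted p = 0.0414). No group overlapped its control in either gene or line. The FaDU rise of SAMD9 was lost without the controls of the extra title word (adjusted p = 0.0502, the highest over its alternatives). The SAMD9 effect differed between the lines by -0.01 (95% interval -0.19 to 0.17), and the SAMD9L effect by 0.32 (SE 0.13, adjusted p = 0.122). Over all genes, 0.973% rose in both lines.

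In JHU-029, those 2 of 41 members rose and 0 fell, against 1.8% and 1.35% of all genes, 3.15% in all. The share of members, 4.88%, was near that of all genes, and at an unadjusted p under 0.05 it was 4 of 41, against 14.8% of all genes. Leaving out replicate 2 or replicate 3 of either JHU-029 group ended the SAMD9L call (adjusted p of up to 0.0948). The SAMD9 call was lost in 10 of 23 alternatives, among them those fits and the ones without JHU-029 shControl replicate 1, without FaDU shTP63 replicate 3, without the FaDU controls of the extra title word or with each line fitted alone (adjusted p of up to 0.178). The median of the 41 members was 0.06, against 0.00 over all genes, and 30 members had a positive difference, against 50.1% of all genes. In GBP3, RSAD2, SAMD9 and SAMD9L all shTP63 arrays lay above all shControl arrays, as in 13.3% of all genes. The 39 members without a call lay between -0.17 for OAS2 and 0.47 for RSAD2. RSAD2 had 6.84, 7.35 and 7.33 in JHU-029 shTP63 cells, against 6.81, 6.58 and 6.71 in JHU-029 shControl cells, and its groups did not overlap (SE 0.15, adjusted p = 0.133).

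Within the JHU-029 shTP63 group the arrays did not lie alike. The median deviation of the members from their group mean was -0.16 in replicate 1, against 0.09 in replicate 2 and 0.10 in replicate 3, while that of all genes was within 0.01 of 0 in all 3. The median SD of the members over the 3 arrays was 0.153 in JHU-029 shTP63 and 0.0831 in JHU-029 shControl, whereas in FaDU it was 0.0758 with shTP63 and 0.0727 with shControl. Without JHU-029 shTP63 replicate 1 the median change of the members in JHU-029 was 0.13, and 4 members rose and 0 fell, against 1.85% of all genes that rose. The added calls were RSAD2 (0.64, SE 0.14, adjusted p = 0.0352) and IFI44L (0.40, SE 0.08, adjusted p = 0.0301). In that fit 35 of the 41 members had a positive difference in JHU-029, against 49% of all genes. The groups share an estimate of the spread, and 29 members then rose in FaDU, with IFI44L and IFIH1 added. Of all genes 12.6% then rose there. What set JHU-029 shTP63 replicate 1 apart was not tested.

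**Figure D3:**
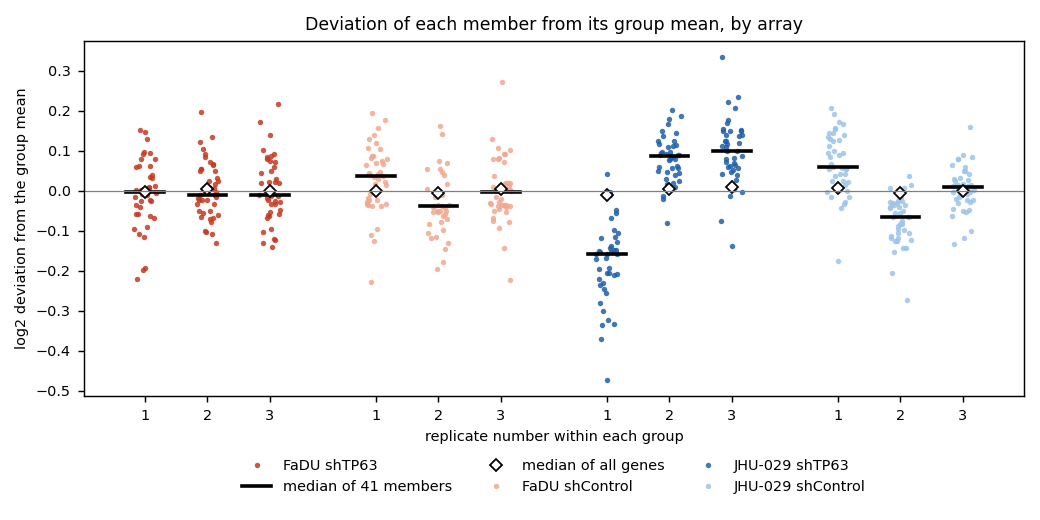
Log2 deviation of each of the 41 members from the mean of its group, by array, with the median of the members (bar) and of all genes (diamond). In JHU-029 shTP63 replicate 1 the bar lies at -0.16 and the diamond near 0, while the FaDU shTP63 bars all lie near 0.

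Genes of the ISG15 system were split in FaDU, with 2 of 5 rising, against 12.4% of all genes. HERC6, a HECT-type ligase, had 8.41, 8.65 and 8.52 in FaDU shTP63 cells, against 8.11, 8.07 and 8.03 in FaDU shControl cells, and rose by 0.46 (SE 0.08, adjusted p = 0.00115). UBE2L6 rose by 0.21 (SE 0.06, adjusted p = 0.0215), a call lost without FaDU shControl replicate 1 or 2, FaDU shTP63 replicate 3 or the controls of the extra title word, and with each line fitted alone (adjusted p of up to 0.379). ISG15 itself had 8.47, 8.35 and 8.62 in FaDU shTP63 cells, against 8.37, 8.44 and 8.40 in FaDU shControl cells, and the groups overlapped. Its difference was 0.08 (SE 0.08, adjusted p = 0.537), with a 95% interval of -0.10 to 0.25. The deconjugating protease USP18 (0.16, adjusted p = 0.249) and HERC5, the main ISG15 ligase and the neighbour of HERC6 on chromosome 4 (0.13, adjusted p = 0.464), did not pass. Among the IFI genes 1 of 5 rose, a count near that share of all genes. IFI27, a mitochondrial membrane protein, had 9.26, 9.03 and 9.11 in FaDU shTP63 cells, against 8.31, 8.11 and 8.15 in FaDU shControl cells, and rose 1.92-fold (0.94, SE 0.08, adjusted p = 3.92e-06). In JHU-029 it had 9.83, 10.04 and 10.06 in JHU-029 shTP63 cells, against 9.96, 9.93 and 9.99 in JHU-029 shControl cells (0.01, 95% interval -0.16 to 0.19). IFI6, a related protein with 3 ISRE matches in its promoter, had 10.28, 10.23 and 10.21 in FaDU shTP63 cells, against 10.12, 10.23 and 10.34 in FaDU shControl cells. The IFI6 groups overlapped, and the difference of 0.01 had a 95% interval of -0.19 to 0.21. IFI35 (-0.06), IFI44 (-0.12) and IFI44L (0.39, adjusted p = 0.0855) did not pass.

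PARP9, PARP14 and DTX3L, which act in ADP-ribosylation and ubiquitination during the interferon response, all rose in FaDU, where 12.4% of all genes rose. DTX3L, a ubiquitin ligase, had 10.16, 10.12 and 10.17 in FaDU shTP63 cells, against 9.74, 9.66 and 9.59 in FaDU shControl cells, and rose by 0.49 (SE 0.06, adjusted p = 4.02e-05). Its partner PARP9, encoded next to it on chromosome 3, had 9.65, 9.59 and 9.52 in FaDU shTP63 cells, against 9.12, 9.02 and 9.07 in FaDU shControl cells, and rose by 0.51 (SE 0.09, adjusted p = 0.000949). The neighbours thus rose by similar amounts, and the knockdown arrays of each lay above its controls. PARP14 had 9.81, 9.77 and 9.82 in FaDU shTP63 cells, against 9.64, 9.51 and 9.24 in FaDU shControl cells, and rose by 0.34 (SE 0.09, adjusted p = 0.0157), a call lost without FaDU shControl replicate 3 and with each line fitted alone (adjusted p of up to 0.054). Among the other members, XAF1, a pro-apoptotic zinc finger protein, had 7.50, 7.34 and 7.39 in FaDU shTP63 cells, against 6.53, 6.48 and 6.62 in FaDU shControl cells, and rose by 0.87 (SE 0.12, adjusted p = 0.000141). SP100, a nuclear body protein, rose by 0.31 (SE 0.10, adjusted p = 0.0294), a call lost in 6 of 23 alternatives, among them those without FaDU shControl replicate 2 or 3, FaDU shTP63 replicate 1 or 2 or the controls of the extra title word (adjusted p of up to 0.0985). PLSCR1 (0.09) and EPSTI1 (0.00) did not pass.

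The 14 members without a call in FaDU thus included ISG15, IFI6 and IFI44, while MX1, IFI27, RSAD2, IFIT1 and OAS1 rose. The differences of the 14 ran from -0.12 to 0.39. Of the 14, 11 were lower in FaDU shControl than in JHU-029 shControl, as were 32 of all 41 members and 30.4% of all genes. An ISRE match stood in 10 of the 12 uncalled members with a promoter (83.3%) and in 13 of the 21 risen ones (61.9%). A GAS match stood in 4 of the 12 (33.3%) and in 8 of the 21 (38.1%). The risen members GBP2, IFIT2, MX2, OAS2, IRF7 and TRIM22 had no promoter in the table. Among members that are neighbours on a chromosome, GBP2 and GBP3, IFIT2 and IFIT3, IFIT1 and IFIT5, MX1 and MX2, PARP9 and DTX3L, and SAMD9 and SAMD9L rose together in FaDU. RSAD2 and CMPK2, HERC6 and HERC5, and OAS1 and OAS2 against OAS3 were split by the test. This contrast in calls was not itself tested. Of the neighbours IFI44L (0.39) and IFI44 (-0.12) neither passed. How often neighbours among all genes rose together was not counted.

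Whether the lines responded differently was tested as the FaDU effect minus the JHU-029 effect. The effect was larger in FaDU for 12 of 41 members and smaller for 0, against 4.97% and 8.25% of all genes, 13.2% in all. At an unadjusted p under 0.05, 20 members differed, against 25.8% of all genes. The median of the members was 0.28, against 0.01 over all genes, and 36 members had a positive value, against 52.2%. GBP2 (1.94, SE 0.12, adjusted p = 3.76e-06), OAS2 (1.06, SE 0.13, adjusted p = 0.000338), MX1 (1.01, SE 0.20, adjusted p = 0.00589) and IFI27 (0.93, SE 0.11, adjusted p = 0.000265) differed most. XAF1 (0.80, SE 0.17, adjusted p = 0.00702), IRF9 (0.64, SE 0.12, adjusted p = 0.00421) and IFIT3 (0.57, SE 0.12, adjusted p = 0.00894) came next. DTX3L (0.46, SE 0.08, adjusted p = 0.00256) and IRF1 (0.45, SE 0.09, adjusted p = 0.00714) also passed. For GBP2 the second probe set gave a difference of 1.15. The calls of HERC6 (0.43, SE 0.12, adjusted p = 0.0296), PARP14 (0.46, SE 0.13, adjusted p = 0.036) and IFIT2 (0.35, SE 0.10, adjusted p = 0.0401) were the least stable, being lost in 7, 10 and 12 of 22 alternatives, with an adjusted p of up to 0.0849, 0.0859 and 0.134. Each of these 3 was lost, for example, without JHU-029 shControl replicate 1 or 3, FaDU shControl replicate 3, JHU-029 shTP63 replicate 1 or FaDU shTP63 replicate 2 or 3. PARP14 was also lost without JHU-029 shTP63 replicate 2 or FaDU shTP63 replicate 1, and IFIT2 without JHU-029 shControl replicate 2 or FaDU shControl replicate 1 or 2. The XAF1, IFIT3, HERC6 and IFIT2 calls were lost without the controls of the extra title word (adjusted p of up to 0.0638 for XAF1 and 0.0863 for IFIT3). MX2 had a difference of 0.65 that did not pass (SE 0.20, adjusted p = 0.0546). Without JHU-029 shTP63 replicate 1 the median difference was 0.15 and 9 members passed, all larger in FaDU. Of all genes, 4.16% were then larger in FaDU and 12.2% differed in all.

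For the members among these 12 not yet given in JHU-029, XAF1 had 8.09, 8.53 and 8.62 in JHU-029 shTP63 cells, against 8.49, 8.26 and 8.30 in JHU-029 shControl cells (0.06). IFIT3 had 8.38, 8.65 and 8.57 in JHU-029 shTP63 cells, against 8.46, 8.39 and 8.49 in JHU-029 shControl cells (0.09), and IFIT2 had 9.42, 9.66 and 9.65 in JHU-029 shTP63 cells, against 9.49, 9.37 and 9.45 in JHU-029 shControl cells (0.14). DTX3L had 10.62, 10.72 and 10.67 in JHU-029 shTP63 cells, against 10.67, 10.59 and 10.65 in JHU-029 shControl cells (0.03). In all of these genes the JHU-029 groups overlapped and the difference did not pass. PARP14 had 9.89, 10.06 and 10.11 in JHU-029 shTP63 cells, against 10.20, 10.06 and 10.16 in JHU-029 shControl cells (-0.12), and HERC6 had 8.92, 9.16 and 9.13 in JHU-029 shTP63 cells, against 9.08, 8.92 and 9.13 in JHU-029 shControl cells (0.03), also with overlap.

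**Figure D4:**
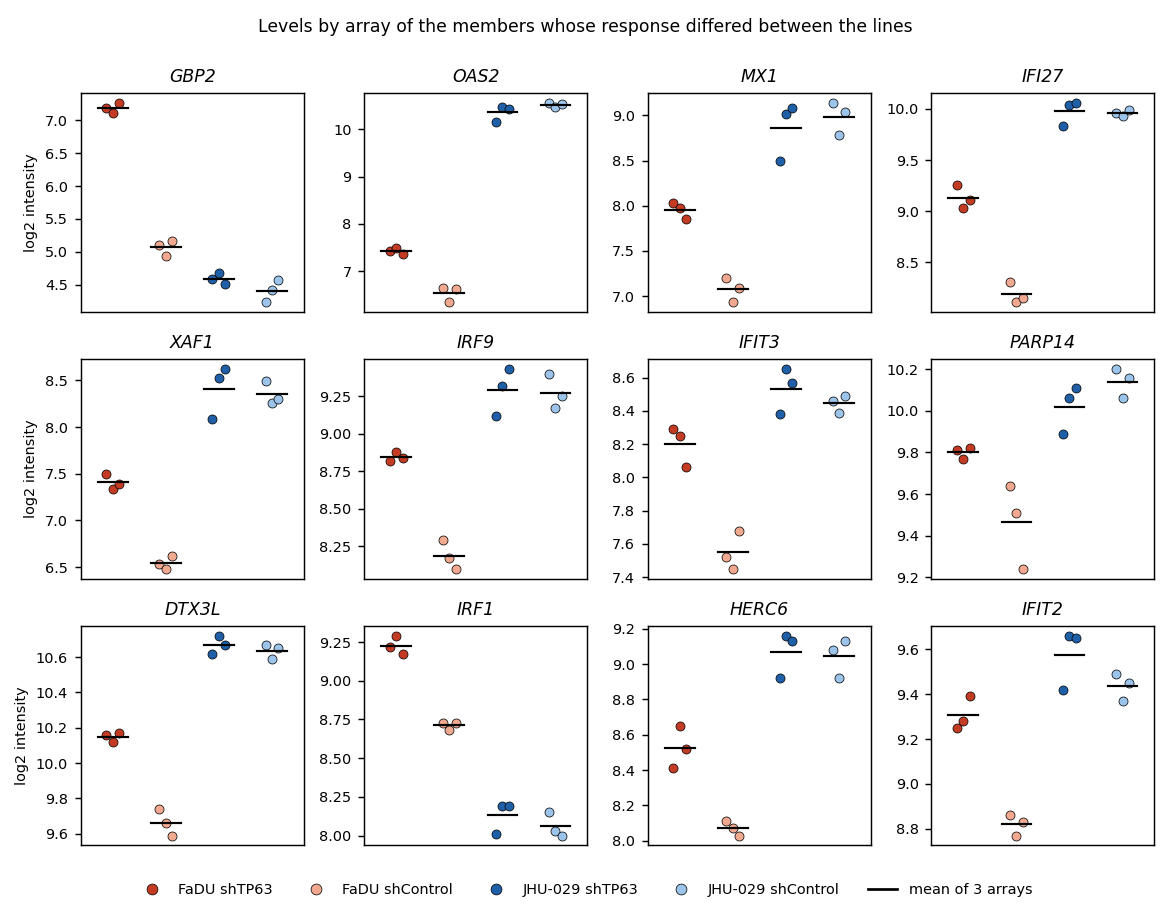
Log2 intensity on each array of the 12 members whose response differed between the lines, with the group mean as a line. In 10 of the 12 every FaDU shControl array lies below every JHU-029 shControl array, and for GBP2 and IRF1 every one lies above. Over all genes, 32.4% lie below and 36.6% above in this way, and 32 of all 41 members lie below.

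After TP63 knockdown most of the risen members still lay below the control level of JHU-029. Of the 27 members that rose in FaDU, 21 had been lower in FaDU shControl than in JHU-029 shControl, a pair of calls that 5.54% of all genes had. In all 21 the FaDU shTP63 mean remained below the JHU-029 shControl mean, and in 20 of them, all but IFIT2, every FaDU shTP63 array lay below every JHU-029 shControl array. How many of all genes with this pair of calls also stayed below was not counted, so no share stands beside these counts. OAS2 averaged 7.42 ± 0.06 in FaDU shTP63 and 10.52 ± 0.05 in JHU-029 shControl (SD, n = 3 each). IFIT2 averaged 9.31 ± 0.07 in FaDU shTP63 and 9.44 ± 0.06 in JHU-029 shControl (SD, n = 3 each). GBP2, IRF1, BST2 and UBE2L6 instead rose from the higher side. Of the 12 members whose response differed between the lines, 10 were lower and 2 higher in FaDU shControl. Among all 41 members 32 were lower and 4 higher, and among all genes 30.4% and 33.4%.

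The rest of the pathway was followed in lists of 99 further measured genes. In FaDU 28 of them rose and 10 fell, where 12.4% of all genes rose and 14.2% fell. In JHU-029 2 rose and 2 fell, where 1.8% of all genes rose and 1.35% fell, so these counts and the FaDU falls were at or near the shares of all genes. Of 16 interferon genes, all but the 3 lambda genes had means below the array median in all 4 groups. IFNA10 was the 1 that passed, rising by 0.65 in FaDU (SE 0.16, adjusted p = 0.00725) between means of 3.95 with shTP63 and 3.29 with shControl, at the dim end of the arrays and in a family of near-identical genes. IFNB1 lay at 3.56 in FaDU shTP63 and 3.47 in FaDU shControl (0.08, SE 0.11, adjusted p = 0.629). Of 16 receptors, kinases and regulators, 5 rose and 3 fell in FaDU, against the same 12.4% and 14.2% of all genes. IL10RB, a subunit of the lambda interferon receptor, rose by 0.60 (SE 0.07, adjusted p = 4.60e-05) and IFNAR1, of the type I receptor, by 0.44 (SE 0.07, adjusted p = 0.000507). STAT3 rose by 0.36 (SE 0.05) and PIAS1 by 0.28 (SE 0.05). IFNGR1, the ligand-binding chain of the interferon gamma receptor, fell by 0.48 (SE 0.06, adjusted p = 5.47e-05). TYK2 fell by 0.20 in FaDU (SE 0.05, adjusted p = 0.0139). It also fell in JHU-029, where the difference was -0.25 (SE 0.05, adjusted p = 0.0261). PTPN11, a phosphatase, fell by 0.18 in FaDU (SE 0.06, adjusted p = 0.0415).

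Nucleic acid sensing genes had 5 of 19 rising and 2 falling in FaDU, against 12.4% and 14.2% of all genes, so the falls were no more frequent than over all genes. TLR3, the endosomal receptor of double-stranded RNA, had 10.11, 10.27 and 10.18 in FaDU shTP63 cells, against 9.24, 9.27 and 9.18 in FaDU shControl cells, and rose by 0.96 (SE 0.10, adjusted p = 1.38e-05), with no overlap. The cytosolic RNA sensor RIGI rose by 0.35 (SE 0.07, adjusted p = 0.00249), and the DNA-pathway adaptor STING1 by 0.35 (SE 0.07, adjusted p = 0.00156). MYD88 rose by 0.28 (SE 0.07), TRAF3 fell by 0.39 (SE 0.06) and the DNA sensor IFI16 fell by 0.25 (SE 0.06). Of 48 other interferon-inducible genes, 17 rose and 5 fell in FaDU, and the falls were again at a share below the 14.2% of all genes. IDO1, which degrades tryptophan, had 5.73, 5.76 and 5.92 in FaDU shTP63 cells, against 4.62, 4.29 and 4.48 in FaDU shControl cells, and rose by 1.34 (SE 0.09, adjusted p = 6.51e-07), below the array median in both groups. GBP4, a further guanylate-binding protein, rose by 1.14 (SE 0.10, adjusted p = 5.01e-06). The death ligand TNFSF10 rose by 0.79 in FaDU (SE 0.08, adjusted p = 1.27e-05). Its rise in JHU-029 was 0.51 (SE 0.08, adjusted p = 0.00425). APOL1, an apolipoprotein, rose by 0.72 in FaDU (SE 0.07, adjusted p = 1.43e-05). PML, the scaffold of nuclear bodies, differed by -0.62 in FaDU (SE 0.07, adjusted p = 2.16e-05). The PML difference in JHU-029 cells was -0.36 (SE 0.07, adjusted p = 0.0119), so it fell in each line. WARS1 fell by 0.47, IFI30 by 0.42 and TRIM14 by 0.38 in FaDU. In JHU-029, GBP5 rose by 0.40 (SE 0.10, adjusted p = 0.0459) at a level below the array median.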

How the data were processed

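Gene expression was measured on 12 arrays, 3 in each of 4 groups. The deposited values are linear intensity made by the authors with RMA, a method of background correction, normalization and probe summary (R 2.15.1, per the submitters' processing notes). The RMA implementation, the probe set definition and the joint or separate normalization of the arrays are not given in the sources used here. RMA pulls low signals together, so differences of dim genes can be understated. Precision is limited by having 3 arrays in a group. Nothing in the labels says that replicates came from separate cultures, so a p-value here reflects the spread among these arrays, which may be technical.

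Values were put on a log2 scale. Of 32321 probe sets, 19158 had 1 gene symbol, 1388 several and 11775 were not listed in the platform annotation, and 19128 of the 19158 matched RefSeq by gene ID. Groups were fitted with limma 3.58.1 in R 4.3.3 (8 residual and 4.17 prior degrees of freedom), without a filter on dim genes. Alternatives covered scaling, dim genes, probe sets, the variance prior, replicate blocks, single lines and left-out arrays. All measured members are accounted for; full values went to the transcription factors, to members past the threshold in JHU-029 or between the lines, and to the 20 largest changes in FaDU. Pathway genes were named when past the threshold, up to 4 per direction, list and line. The members and lists were chosen with earlier results of these data known.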

Additional observations from a re-analysis of the deposited data

Results flagged for a closer look

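The change after TP63 knockdown differed between FaDU and JHU-029, by the test of that difference in limma, for 12 members. The difference (FaDU effect minus JHU-029 effect, log2 scale) was 1.94 for GBP2, 1.06 for OAS2, 1.01 for MX1 and 0.93 for IFI27. It was 0.80 for XAF1, 0.64 for IRF9, 0.57 for IFIT3 and 0.46 for PARP14. For DTX3L it was 0.46, for IRF1 0.45, for HERC6 0.43 and for IFIT2 0.35. The second probe set of GBP2 gave 1.15. OAS2, MX1 and PARP14 had differences of opposite sign in the lines, with JHU-029 at -0.17, -0.13 and -0.12, none of which passed there. Without JHU-029 shTP63 replicate 1, on which most members were lowest, JHU-029 differences were -0.07 for OAS2, 0.05 for MX1 and -0.06 for PARP14. MX1 thus no longer had opposite signs in the lines. In that fit 9 members differed between the lines, against 12.2% of all genes.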

How the results depend on the processing

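No called difference of a member turned its sign in any alternative. In FaDU, 15 of the 27 calls held in all alternatives (DTX3L, GBP2, HERC6, IFI27, IFIT2, IFIT3, IRF1, IRF7, IRF9, MX1, OAS1, OAS2, PARP9, SAMD9L and XAF1), GBP2 not being tested with dim genes left out. Between the lines 7 of 12 calls held, and between the controls 33 of 36, with GBP2 and 2 others likewise untested there; in JHU-029 0 of 2 held. Fits without 1 array gave 23 to 29 called members in FaDU, 0 to 4 in JHU-029, 9 to 13 between the lines and 35 to 37 between the controls, and 33 to 40 pathway genes in FaDU and 1 to 4 in JHU-029. Medians of the members then ran from 0.31 to 0.39 in FaDU, 0.02 to 0.13 in JHU-029, 0.15 to 0.35 between the lines and -0.92 to -0.83 between the controls. Without the FaDU controls of the extra title word, fewer samples gave 17 called members and 22 pathway genes in FaDU, and 1 member in JHU-029. JHU-029 also had 1 called member with each line fitted alone. Same-numbered arrays did not deviate together (correlations of -0.08, -0.07 and 0.01 in FaDU and -0.34, -0.01 and -0.20 in JHU-029), so the numbers were not taken to pair them. The replicate number as a fixed block gave 25 called members in FaDU, 1 in JHU-029 and 10 between the lines, and 2 pathway genes in JHU-029; a random replicate block gave 26, 1 and 10 members. The fixed block ended the calls of BST2 and SP100 in FaDU, SAMD9 in JHU-029, IFIT2 and PARP14 between the lines and OASL between the controls, and the random block those of BST2, SAMD9, IFIT2 and PARP14. Over all genes the fixed block called 377 genes in JHU-029 in place of 580, against 903 with dim genes left out and 1015 with a trend in the variance prior. Leaving out JHU-029 shTP63 replicate 2 or 3 or any JHU-029 shControl array gave 229 to 273. Pathway genes called in JHU-029 were 7 with dim genes left out, which leaves 11372 genes to test, and 12 with a trend in the variance prior. The median between the controls was -0.76 with median centring, which moves the median of all genes to 0.16, and -0.79 with quantile normalization (cause not tested). Levels of GBP3, RSAD2 and EPSTI1 in FaDU lay below the array median in both groups, where the arrays resolve changes poorly.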
